A study of Mus musculus with 12 samples.

Results

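The 10 genes of the hyaluronan and versican matrix described here were followed in embryonic mouse hearts with and without the histone chaperone HIRA. They are *Ugdh* and *Has2* for the synthesis of hyaluronan, *Vcan*, *Acan*, *Hapln1* and *Cd44* for the proteoglycans, the link protein and the cell surface receptor that bind it, and *Hyal2*, *Adamts1*, *Adamts5* and *Adamts9* for cleavage. The 10 genes were chosen by name for these roles from the 20368 genes of the deposited table, and all 10 had a row there. RNA was sequenced from hearts of CD1 embryos at E11.5 and E12.5, with 3 libraries for each genotype and stage and 12 libraries in all. Control hearts were *Mesp1Cre*;*Hira*+/fl and mutant hearts were *Mesp1Cre*;*Hira*-/fl. Both genotypes therefore carried the Cre and 1 floxed allele of *Hira*. The control hearts had a wild type allele beside it and the mutant hearts a constitutive null allele, so that cells in which the Cre acted kept 1 functional allele in controls and none in mutants. *Mesp1Cre* is active in early cardiogenic mesoderm, and cells of the heart that do not descend from it keep the floxed allele.

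Cardiac jelly is the extracellular matrix between the myocardium and the endocardium of the early heart, and it swells into the cushions from which the valves and part of the septa form. Its bulk is hyaluronan, a long sugar chain that is spun out at the plasma membrane by a hyaluronan synthase from UDP-sugars, one of which is made by UDP-glucose dehydrogenase. Versican, a large proteoglycan, is tied to hyaluronan by link protein, and the matrix is taken down by hyaluronidases and by proteases of the ADAMTS family as trabeculae and cushions mature.

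*Hapln1* and *Has2* were the 2 of the 10 genes that passed both thresholds in a comparison of the main fits (edgeR). In control hearts both fell by more than 2-fold from E11.5 to E12.5, and at E12.5 *Hapln1* was 1.72-fold higher in mutant than in control hearts. With a term for sex the falls were -0.94 (*Has2*) and -0.99 (*Hapln1*) on the log2 scale and neither was called, in a fit that called 19 of the 12252 genes tested where the fit without sex called 647. *Has2* was 1.49-fold higher in the mutant hearts of E12.5, with an adjusted p of 0.0415 (edgeR) but just under the 1.5-fold threshold. With any 1 library of this comparison left out, the adjusted p of *Has2* was 0.0581 to 0.135. *Vcan*, *Ugdh*, *Cd44*, *Hyal2*, *Adamts1*, *Adamts5* and *Adamts9* did not pass both thresholds in any comparison of the main fits, and *Acan* was too low to be tested. With DESeq2 *Adamts5* passed both between the stages in mutant hearts (log2 change 0.81, adjusted p = 0.0378).

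Whole counts were recovered from the deposited values, and the libraries held between 11994148 and 17483982 counts on genes. *Hira* itself, counted over the whole gene, stood in E11.5 controls at 77.8 ± 8.66 CPM (counts scaled to the depth of the library, SD, n = 3) and in E11.5 mutants at 64.9 ± 8.99. In E12.5 controls and mutants it stood at 74.9 ± 12.8 and 74.4 ± 5.29. Gene counts do not show whether an exon was removed. The paper reports recombination by PCR, few reads of the targeted exon in the mutant RNA-seq, and reduced HIRA protein in mutant hearts of a later stage. By their reads on Y-linked genes, the E11.5 hearts included 3 males of 3 controls and 1 male of 3 mutants, while at E12.5 there was 1 male heart in each genotype. The cardiomyocyte marker genes were high in every library, with a summed level of 6743 to 9181 RPKM, which divides CPM by gene length. The labels do not say whether the 3 libraries of a group came from separate litters, so the p-values measure the spread between these libraries. The number of hearts in each library is not given in the sample titles or the paper, and a heart here stands for a library. In these whole hearts, fewer cells of a type and less RNA per cell cannot be told apart.

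Compared per length, the matrix genes spanned a wide range of levels. *Vcan* (mean over the groups 53.4 RPKM), *Hapln1* (52.0), *Ugdh* (48.1) and *Hyal2* (39.1) were highest, at the 86.4, 86.0, 84.8 and 81.6 percentile of the genes tested. Each of these overlapped with the next in order over the 12 libraries. *Adamts1*, at 20.7 RPKM, lay below all libraries of *Hyal2*, and *Adamts9* (11.7 RPKM) and *Cd44* (11.4 RPKM) followed with ranges that overlapped. *Has2* was at 6.48 RPKM with a range of 3.13 to 11.3, and *Adamts5* at 2.40 RPKM was the lowest of the tested genes. *Acan*, the gene of the cartilage proteoglycan aggrecan, had 6 to 26 reads in each library, a mean of 0.126 RPKM, and was under the limit of 0.5 RPKM that was set for a test.

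**Figure D1:**
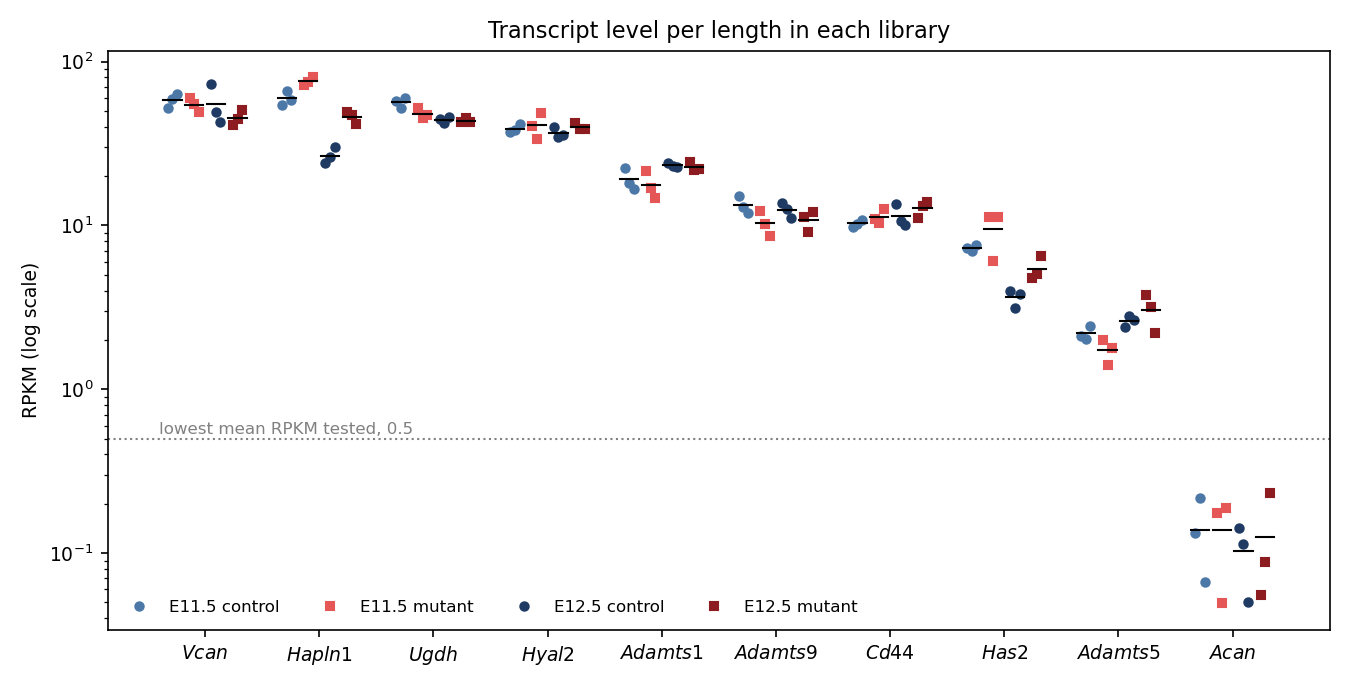
Level per length of the 10 matrix genes in each library, in RPKM on a log scale, ordered by the mean over the 4 groups. Points are single libraries and bars are group means (n = 3). *Hapln1* ranges from 24.0 to 80.4 RPKM with its 4 groups spread apart, while *Hyal2* stays between 33.8 and 48.3 RPKM, and *Acan* lies below the dotted limit of 0.5 RPKM.

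The plot of levels shows that the 4 groups of the link protein gene *Hapln1* lie apart. For the synthesis gene *Has2* the E12.5 controls lie below the other groups, some of which overlap. For each of the other genes some of the groups overlap. The other hyaluronan synthases were far lower than *Has2*. *Has1* had 2 to 11 reads and *Has3* 20 to 51 reads in each library, and both were under the limit for a test. Per length they stood at 0.157 and 0.412 RPKM, against 6.48 RPKM for *Has2*.

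Differences are given as log2 change, the log2 of the fold change fitted by edgeR. The first comparison asked whether loss of HIRA altered the genes that make hyaluronan. The 3 control libraries at E11.5 held 31.1, 29.6 and 32.3 CPM of *Has2*, the gene of the main hyaluronan synthase of the embryonic heart, and the mutant libraries 48.1, 25.7 and 47.9. The second mutant library was lower than all controls and the others were higher, so the genotypes overlapped. The log2 change was 0.38 (SE 0.22, adjusted p = 0.650, edgeR). All controls but only the third mutant library were male at E11.5, and with a term for sex the log2 change was 0.64. At E12.5 the control libraries held 16.96, 13.3 and 16.1 CPM and the mutant libraries 20.3, 21.4 and 27.5. All 3 mutant hearts exceeded all 3 controls at this stage. The log2 change of *Has2* was 0.58 (SE 0.14, 95% interval 0.27 to 0.89), with an adjusted p of 0.0415 (edgeR) that ran from 0.00930 to 0.258 over its alternatives. *Ugdh*, the gene of UDP-glucose dehydrogenase, had 138 ± 9.88 CPM in control and 117 ± 8.62 in mutant hearts at E11.5, where all mutant libraries (110 to 127 CPM) lay just below all controls (127 to 146). Its log2 change there was -0.24 (SE 0.12, adjusted p = 0.559, edgeR). At E12.5 the levels of *Ugdh* were 108 ± 5.04 and 106 ± 3.28 CPM and the difference was -0.03 on the log2 scale, with a 95% interval of -0.18 to 0.13.

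Of *Hapln1*, *Vcan* and *Cd44*, the binding genes tested among the 10, *Hapln1* passed both thresholds between genotypes. It encodes hyaluronan and proteoglycan link protein, which locks versican onto the hyaluronan chain. At E12.5 its level was 122, 132 and 152 CPM in the control libraries and 250, 238 and 211 CPM in the mutant libraries. The lowest mutant heart thus stood well above the highest control heart. The means were 135 ± 15.5 and 233 ± 20.4 CPM (SD, n = 3), a log2 change of 0.79 (SE 0.10, 95% interval 0.57 to 0.999, adjusted p = 0.00246, edgeR). At E11.5 *Hapln1* was at 275, 333 and 295 CPM in the controls and at 364, 378 and 407 CPM in the mutants. The genotypes did not overlap at this stage either, and the log2 change was 0.35 (SE 0.13) with an adjusted p of 0.381 (edgeR). The E11.5 controls were all male and the mutants 1 male and 2 female, so sex and genotype were partly confounded there. The male mutant library was the one at 407 CPM. With a term for sex the log2 change at E11.5 was 0.44, a value that rests on that library. An exact two-sided permutation test of 3 libraries against 3 gave p = 0.1 at each stage, the smallest it can give. Both E12.5 groups had 1 male and 2 female hearts, and the order held within each sex. The male hearts were at 152 CPM in the control and 250 in the mutant, and the female hearts at 122 and 132 against 238 and 211. With a term for sex the log2 change at E12.5 was 0.79 (adjusted p = 0.000966, edgeR).

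**Figure D2:**
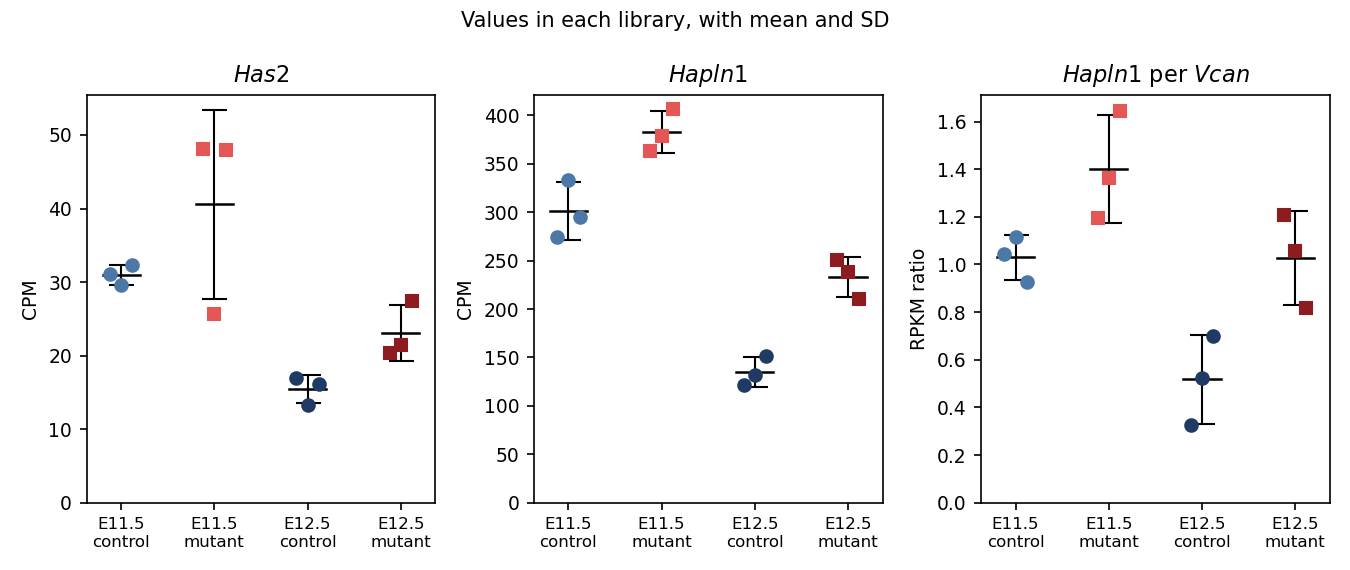
*Has2* and *Hapln1* in CPM, and the RPKM of *Hapln1* per RPKM of *Vcan*, in each of the 12 libraries. Points are libraries, and bars are the mean and SD of 3 libraries. *Hapln1* is higher in all 3 mutant hearts than in all 3 controls at both stages, and *Has2* at E12.5 only, where its mutant libraries range from 20.3 to 27.5 CPM.

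*Vcan*, which encodes versican, showed no such rise. In control hearts at E12.5 it was at 1077, 727 and 632 CPM, and in mutant hearts at 601, 656 and 747 CPM. The first control library stood apart from all others. The log2 change was -0.28 (SE 0.17, adjusted p = 0.358, edgeR), and it was -0.03 without that library. At E11.5 the means were 852 ± 82.8 and 803 ± 83.4 CPM, a log2 change of -0.09 (SE 0.14, adjusted p = 0.915). With a term for sex the log2 change of *Vcan* at E11.5 was -0.24. *Hapln1* and *Vcan* are neighbours on chromosome 13 of GRCm38, with *Hapln1* on the + strand from 89540636 to 89611832, *Vcan* on the - strand from 89655312 to 89742509 and 43479 bases between them. Their ratio per length was followed in each library as a description that was chosen after the values were seen. In control hearts the RPKM of *Hapln1* per RPKM of *Vcan* was 1.03 ± 0.0955 at E11.5 and 0.518 ± 0.186 at E12.5. In mutant hearts the ratios were 1.40 ± 0.228 and 1.03 ± 0.197. The lowest mutant ratio lay above the highest control ratio at each stage, 1.19 against 1.12 at E11.5 and 0.819 against 0.699 at E12.5, as the right panel of the plot of *Has2* and *Hapln1* shows.

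*Cd44*, the gene of the main surface receptor for hyaluronan, lay between 55.6 and 78.8 CPM in all 12 libraries, and the genotypes overlapped at both stages. Its log2 changes were 0.13 (SE 0.12) at E11.5 and 0.16 (SE 0.12) at E12.5, and the 95% interval at E12.5 was -0.11 to 0.42. *Acan* could only be described. It had 15, 25 and 7 reads in the E11.5 controls and 20, 6 and 16 in the mutants, and 16, 15 and 6 against 6, 11 and 26 at E12.5, so that a difference was not detectable at this depth.

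None of the 4 genes of cleavage passed the thresholds between genotypes. *Hyal2*, which encodes a hyaluronidase held at the cell surface, stayed between 62.5 and 89.3 CPM in all libraries, with log2 changes of 0.06 (SE 0.15) at E11.5 and 0.12 (SE 0.08) at E12.5. *Adamts1*, *Adamts5* and *Adamts9* encode proteases that cut versican. *Adamts1*, the most abundant of them, had 93.3 ± 14.3 CPM in control and 86.5 ± 16.8 in mutant hearts at E11.5, and 114 ± 3.75 and 111 ± 6.47 at E12.5. Its log2 change at E12.5 was -0.04, with a 95% interval of -0.20 to 0.12. *Adamts9* was at 91.7, 77.7 and 72.3 CPM in the E11.5 controls and at 73.6, 61.9 and 51.9 in the mutants. The first mutant library exceeded the third control library and the others were lower, and the log2 change of *Adamts9* was -0.37 (SE 0.16, unadjusted p = 0.0427, adjusted p = 0.464, edgeR). At E12.5 it was -0.22 (SE 0.11, adjusted p = 0.306). *Adamts5*, the least abundant of the 3 proteases, was at 17.02, 16.5 and 19.8 CPM in the E11.5 controls and at 16.2, 11.4 and 14.4 in the mutants. All mutant hearts were lower, by a small margin, with a log2 change of -0.35 (SE 0.18, adjusted p = 0.572). At E12.5 the values of *Adamts5* were 19.5, 22.7 and 21.5 CPM in controls and 30.5, 25.7 and 18.0 CPM in mutants. There 2 mutant libraries were above all controls and 1 was below them, with a log2 change of 0.22 (SE 0.16, adjusted p = 0.481, edgeR).

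Over the 9 tested genes, none was changed at E11.5 past both thresholds, which were an adjusted p up to 0.05 and a change of 1.5-fold or more (edgeR), as were 0.115% of all 12197 genes tested. *Hapln1* and *Adamts9* had an unadjusted p under 0.05, as did 1242 of all genes. DESeq2 also called 0 of the 9, and 248 of the 12197 genes. Mutant and control libraries did not overlap for 3 of the 9, *Hapln1*, *Ugdh* and *Adamts5*, which held for 16.3% of all genes. At E12.5 1 of the 9 genes was higher in mutant hearts, *Hapln1*, against 1.59% of the 12257 genes tested, and none was lower. With no limit on the fold, 2 of the 9 were higher at an adjusted p up to 0.05, *Hapln1* and *Has2*, against 2.73% of all genes. The same pair had groups that did not overlap, against 26.3% of all genes. The median log2 change of the 9 genes was -0.09 at E11.5 and 0.12 at E12.5, beside medians of 0.00 for all genes.

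**Figure D3:**
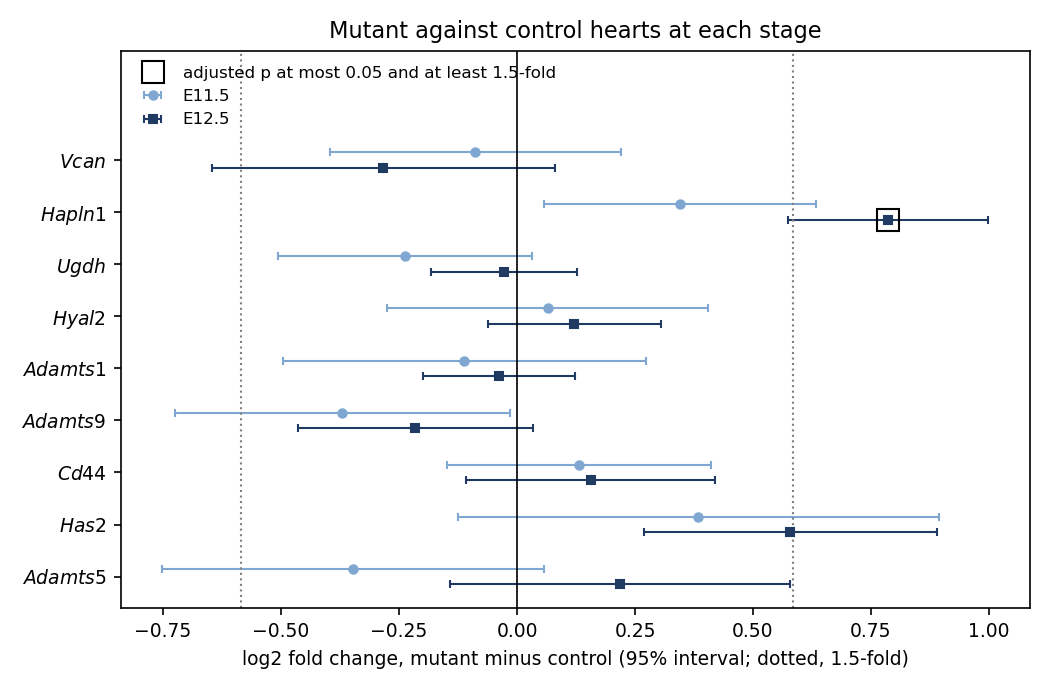
Log2 change of the 9 tested matrix genes, mutant minus control, at E11.5 and E12.5, with 95% intervals from edgeR (3 libraries against 3). Dotted lines mark a 1.5-fold change. *Hapln1* at E12.5, at 0.79 and outlined in black, is the only value past both thresholds, and *Has2* at E12.5, at 0.58, lies just inside the dotted line.

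With both stages in one fit of 12 libraries and stage as a term, the effect of genotype on *Hapln1* was 0.57 on the log2 scale (SE 0.10, adjusted p = 0.00363, edgeR), or 1.48-fold. A permutation of genotype within stage gave an exact p of 0.005, the smallest that this design allows. *Has2* had 0.48 (SE 0.14, adjusted p = 0.0617; exact permutation p = 0.03) and *Adamts9* had -0.29 (SE 0.10, adjusted p = 0.114; exact permutation p = 0.035). Neither passed the adjusted threshold in this fit. For *Has2* the adjusted p was 0.0238 with DESeq2 and 0.0366 with a replicate block, at less than 1.5-fold in both, and ran from 0.0549 to 0.101 with the other settings that kept all libraries. None of the 9 genes met both thresholds here, against 3.22% of the 12270 genes tested, and *Hapln1* alone was higher at an adjusted p up to 0.05 with no limit on the fold, against 3.78%. It was also the only gene of the 9 whose genotypes did not overlap at either stage, which held for 6.53% of all genes. With each of the 12 libraries left out in turn, *Has2* passed both thresholds in 1 fit, without the second E11.5 mutant library, the one low in *Has2* (0.60, adjusted p = 0.00243), and had an adjusted p of 0.0884 to 0.145 in the others. *Hapln1* passed both thresholds without that library (0.60), without the second E11.5 control (0.62) and without the first E11.5 mutant library (0.61).

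The mutant effect on *Hapln1* was larger at the later stage, by a log2 difference of 0.44 (SE 0.16, unadjusted p = 0.0149, adjusted p = 0.925, edgeR), and that on *Adamts5* by 0.57 (SE 0.26, unadjusted p = 0.0478, adjusted p = 0.956). No gene of the 9 passed after adjustment. Over the 12270 genes tested, 0.00% passed in edgeR, where 551 had an unadjusted p under 0.05, and 41 passed in DESeq2. A mutant effect that differs between the stages was therefore not shown for any of these genes.

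The next comparison followed the matrix genes from E11.5 to E12.5 within each genotype. The descriptions of the E11.5 libraries end in a letter that those of the E12.5 libraries lack, with no meaning given, so a separate preparation and the stage cannot be told apart. In control hearts *Has2* went from 31.0 ± 1.37 to 15.4 ± 1.92 CPM (SD, n = 3), a log2 change of -1.01 (SE 0.12, adjusted p = 0.00490, edgeR). *Hapln1* went from 301 ± 29.8 to 135 ± 15.5 CPM, a log2 change of -1.16 (SE 0.12, adjusted p = 0.00198). All E12.5 control libraries lay below all E11.5 control libraries for both genes. All 3 E11.5 controls were male, so only the third E12.5 control could be set against them within a sex, and it held 16.1 CPM of *Has2* against 29.6 to 32.3, and 152 CPM of *Hapln1* against 275 to 333. *Ugdh* differed less, with 138 ± 9.88 and 108 ± 5.04 CPM (log2 change -0.35, SE 0.09, adjusted p = 0.0404), which is under the fold threshold. With a term for sex the values in controls were -0.94 for *Has2* (adjusted p = 0.152) and -0.99 for *Hapln1* (adjusted p = 0.0640), and neither was called.

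In mutant hearts *Hapln1* also fell between the stages, from 383 ± 21.8 to 233 ± 20.4 CPM (log2 change -0.73, SE 0.11, adjusted p = 0.0355, edgeR). The call was lost without E11.5 mutant library 1 or 2 and without any of the E12.5 mutant libraries, with log2 changes of -0.78 to -0.65 and adjusted p up to 0.233. *Has2* went from 40.6 ± 12.9 to 23.1 ± 3.85 CPM, a log2 change of -0.82 (SE 0.24, adjusted p = 0.284), with the second E11.5 library, at 25.7 CPM, inside the range of the E12.5 mutants. Without that library the log2 change was -1.07 (adjusted p = 0.0424). The E12.5 mutant hearts, at 211 to 250 CPM of *Hapln1* and 20.3 to 27.5 CPM of *Has2*, lay between the control hearts of E11.5 and those of E12.5.

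*Vcan* differed little between the stages, with log2 changes of -0.07 (SE 0.18) in control and -0.28 (SE 0.13, adjusted p = 0.574) in mutant hearts. For *Adamts1* and *Adamts5* the log2 change was above 0 in both genotypes. *Adamts1* had 0.28 (SE 0.11, adjusted p = 0.117) in controls and 0.35 (SE 0.14, adjusted p = 0.508) in mutants. *Adamts5* had 0.26 (SE 0.13, adjusted p = 0.184) in controls and 0.81 (SE 0.22, adjusted p = 0.232) in mutants. There DESeq2 gave 0.81 with an adjusted p of 0.0378, past both thresholds. Of the reads per length on the 3 *Adamts* genes, *Adamts1* took 55.0 ± 1.37% in E11.5 and 60.7 ± 1.25% in E12.5 controls, and 59.4 ± 0.818% and 62.2 ± 1.62% in mutants. *Adamts9*, *Cd44* and *Hyal2* had log2 changes between -0.10 and 0.17 from stage to stage.

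In control hearts 2 of the 9 genes were lower at E12.5, *Has2* and *Hapln1*, against 2.43% of the 12252 genes tested. With *Ugdh*, 3 were lower at an adjusted p up to 0.05 with no limit on the fold, against 5.81%, and the stages did not overlap for 4 of the 9, against 37.4%. In mutant hearts 1 of the 9, *Hapln1*, was lower, against 0.261% of the 12238 genes tested. The stages did not overlap for 3 of the 9 in mutants, *Hapln1*, *Adamts1* and *Adamts5*, against 17.4% of all genes. The median log2 change of the 9 was -0.09 in controls and -0.04 in mutants, beside 0.01 and -0.01 for all genes. The comparisons within a stage and those between stages share libraries, so they are not independent of each other.

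**Figure D4:**
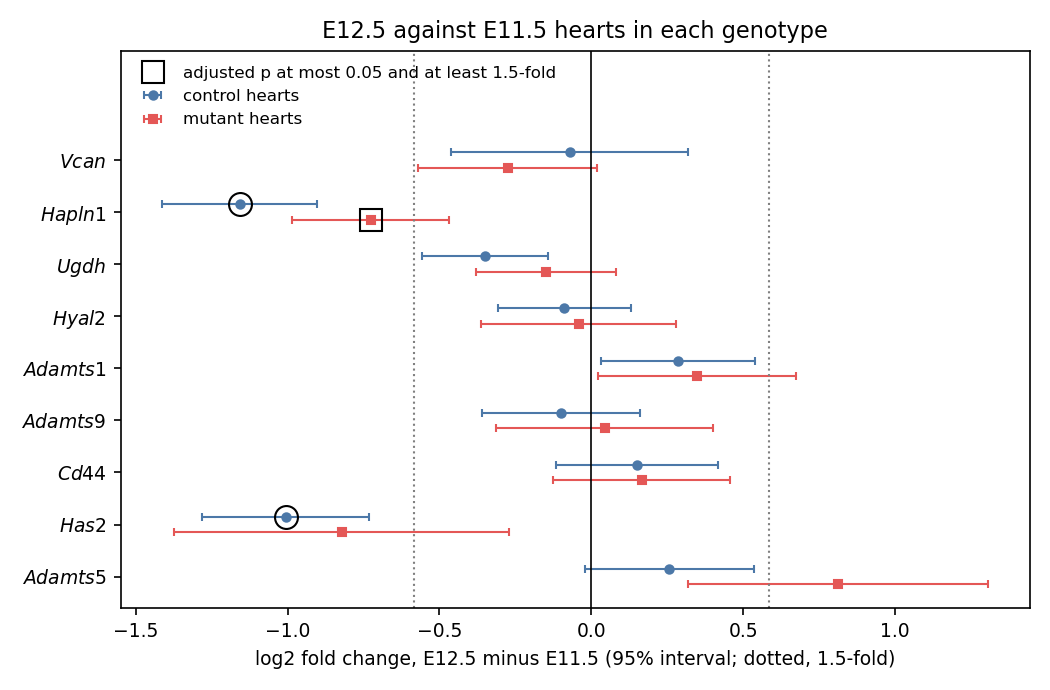
Log2 change of the 9 tested matrix genes, E12.5 minus E11.5, in control and in mutant hearts, with 95% intervals from edgeR (3 libraries against 3). Dotted lines mark a 1.5-fold change and black outlines the values past both thresholds. *Hapln1* (-1.16 and -0.73) and *Has2* (-1.01 in controls) lie to the left, and *Adamts5* in mutant hearts, at 0.81, lies farthest to the right with an interval of 0.32 to 1.31.

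Other genes of the same matrix were counted from a list of 36, of which 34 were in the table and 24 were tested. In mutant hearts 0 of the 24 were changed at E11.5 (edgeR), against 0.115% of all genes called. Of the 24, 4 had an unadjusted p under 0.05 there, as did 1242 of all 12197 genes. An unadjusted p under 0.05 was reached at E12.5 by 9 of the 24, and by 2621 of all 12257 genes. At that stage 1 of the 24 was called lower, against 2.95% of all genes called in either direction. This was *Lyve1*, a hyaluronan receptor of lymphatic endothelium and of some macrophages, at 13.1, 14.5 and 10.1 CPM in control and 2.64, 2.18 and 2.91 CPM in mutant libraries (log2 change -2.29, SE 0.20, adjusted p = 8.14e-04). Between the stages in controls, 2 of the 24 were higher at E12.5, *Lyve1* (log2 change 1.56) and the protease gene *Adamts8* (0.65, adjusted p = 0.0190), against 5.28% of all genes called in either direction. Over both stages *Lyve1* was again the 1 gene called lower, at -1.84, against 3.22% of all genes called in either direction. Of the genes of sugar chain synthesis none of the 10 tested was called in any of these comparisons. The list's most abundant genes were not called either. They were *Ugp2*, which makes UDP-glucose, at 104 RPKM, the fibulin genes *Fbln2* (53.2 RPKM) and *Fbln1* (50.8 RPKM), and *Tmem2*, the gene of a surface hyaluronidase, at 52.2 RPKM. *Tmem2* had 277 ± 58.9 CPM in control and 418 ± 119 in mutant hearts at E11.5 (log2 change 0.59, SE 0.23, adjusted p = 0.402), and at E12.5 313 ± 23.6 and 384 ± 68.6 CPM, and the genotypes overlapped at both stages. The median log2 change of the 24 was 0.04 at E11.5 and -0.06 at E12.5.

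Markers of the cells that make or meet this matrix also differed between the libraries. Of all genes tested, 0.115% were called between genotypes at E11.5, 2.95% at E12.5 and 3.22% over both stages. An unadjusted p under 0.05 (edgeR) was reached by 1242 of 12197 genes at E11.5 and 2621 of 12257 at E12.5. For 6 genes of the endocardium and endothelium, the summed level was 237 to 285 RPKM in control and 282 to 379 in mutant hearts at E11.5, and 281 to 292 against 283 to 332 at E12.5, and 0 of the 6 were called at either stage, where 3 had an unadjusted p under 0.05 at each (edgeR). Over both stages 1 of the 6 was called higher, with a median log2 change of 0.36 for the list. For 6 genes of the cushion mesenchyme it was 191 to 230 in control and 92.5 to 205 in mutant hearts at E11.5, and 176 to 233 against 126 to 164 at E12.5. Most of this sum was *Postn*, the 1 of the 6 called lower at E12.5, with means of 166 RPKM in control and 109 in mutant hearts. The others, *Sox9*, *Twist1*, *Snai1*, *Snai2* and *Msx1*, had log2 changes of -0.36 to -0.02 at E12.5. The 5 epicardial genes summed to 205 to 321 and 134 to 171 RPKM at E11.5, and to 132 to 205 and 165 to 195 at E12.5, with 0 of 5 called at either stage and 5 and 0 of them at an unadjusted p under 0.05. Of the red blood cell genes 5 of 6 were called lower in E12.5 mutant hearts. Their sums were 6010 to 9729 RPKM in control and 3326 to 4199 in mutant hearts. At E11.5 0 of the 6 were called, with 6747 to 8490 against 6991 to 8581 RPKM. Of the macrophage genes 3 of 3 tested were called lower at E12.5, with 15.7 to 20.4 against 7.33 to 11.5 RPKM. At E11.5 0 of the 3 were called and all 3 had an unadjusted p under 0.05 (edgeR). The macrophage sums there were 5.72 to 15.4 against 2.11 to 3.51 RPKM. Over both stages 0 of the red blood cell genes and all 3 macrophage genes were called lower. The 4 liver genes summed to 0.426 to 28.0 RPKM over the libraries, with 0 called between genotypes at either stage, 3 at an unadjusted p under 0.05 at E12.5, and 1 of the 4 at 0 in all E11.5 controls. Over both stages 1 liver gene was called higher. The liver reads were uneven between libraries of a group. *Alb* had 277, 6 and 11 reads in the E12.5 mutants and 1, 16 and 4 in the E12.5 controls. *Afp* had 319, 2 and 6 reads in the E11.5 controls and 787, 4 and 4 in the E11.5 mutants. What part these cells have in the values of *Hapln1*, *Has2* and *Lyve1* was not tested.

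The genes whose pattern over the 12 libraries was most like that of *Has2*, by Pearson's r of log2 CPM among 12260 genes, were *Sall4* (0.965), *Ddah1* (0.935) and *Gtf2e2* (0.925). For *Vcan* the closest were *Cbx5* (0.964) and *Slc30a5* (0.900). The 12 points share their stage and genotype groups, and these values are a description.

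Several matrix genes share bases with transcripts that had no row in the deposited table. *Has2os*, on the opposite strand, covers 4596 bases of the *Has2* gene on chromosome 15 (56665627 to 56694539), and *Gm4117* covers 3050 bases at the 5′ end of *Vcan*. Use of the strand in counting is not given in the sources used here, so reads of such partners cannot be told apart from those of the genes themselves. *Hapln1* overlaps only a processed pseudogene. *Adamts1* (85793827 to 85803113) and *Adamts5* (85858170 to 85901125) lie 55056 bases apart on chromosome 16, the chromosome of *Hira*, which is 66.8 megabases from *Adamts1*.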

How the data were processed

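RNA of embryonic hearts was extracted in triplicate and sequenced as paired ends. Submitters' processing notes name Bowtie2, DESeq and mm10. The counting program, the annotation and the use of strand are not given in the sources used here. The authors deposited for 12 libraries values named RPKM, which were treated as a score, because each is a whole count multiplied by gene length and by a library factor. The authors also deposited group averages of the count per gene, an expected count, and their own fold changes, z scores and p-values, which were not used. The averages fixed the library factors, and dividing out gave whole counts for 17827 genes (largest distance from a whole number 4.95e-10). The recovery and the tests were checked on simulated data.

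Counts were tested with edgeR 4.0.16 (quasi-likelihood, TMM, R 4.3.3) on genes whose RPKM averaged 0.5 or more in the fitted libraries, with Benjamini-Hochberg adjustment over all of them. A change needed an adjusted p of at most 0.05 and 1.5-fold. The study's methods name a Mann-Whitney test, which with 3 against 3 cannot go under 0.1. Levels are TMM-scaled CPM or RPKM, as mean ± SD. Single genes had exact two-sided permutation tests on log2(CPM + 0.5). Standard errors and intervals were derived from edgeR's F statistic. Hearts with at least 100 Y-linked reads were called male. Replicates of a group differed by more than counting noise. The third E11.5 mutant library, which had the fewest counts (11994148), differed most from its group. Its chi-square per gene was 44.9 and 51.2 against the other replicates, where all other pairs had 6.93 to 29.85. Alternatives were DESeq2 1.42.0, limma 3.58.1 on log2(RPKM + 0.5), with pseudocounts of 0.1 and 1, median-ratio scaling, other filters, all 12 libraries in one fit, a replicate block, a sex term, no fold threshold and each library left out. The matrix genes, the marker lists and the tests were chosen with earlier results of these data known. By rule the 10 genes were named in every library, other matrix genes where called or among the 4 most abundant, and for *Has2* and *Vcan* the 3 most similar genes, of which 1 is not reported here. No sequences are printed.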

Additional observations from a re-analysis of the deposited data

How the results depend on the processing

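*Hapln1* at E12.5 passed both thresholds in every alternative, with log2 fold changes of 0.71 to 0.88. In none of the alternatives did any of the 9 tested genes pass at E11.5 or have a mutant effect that differed between stages. With no fold threshold the count was 2 at E12.5 and 1 over both stages. A sex term gave 0 for the stages in controls, where it left 19 of 12252 genes called over all genes against 647, and 1 over both stages, where it called 427 of 12270 against 395. For the stages in mutant hearts DESeq2 gave 2, *Hapln1* and *Adamts5*, where it called 227 of 12238 genes over all genes against 68. The count there ran from 0 to 1 with single libraries left out. Over both stages it ran from 0 to 2. With the replicate block the count for the stages in mutants was 0 (*Hapln1* -0.73, adjusted p = 0.123, edgeR), where 36 of 12238 genes were called. The block changed no other call of the 9 genes at both thresholds, while *Has2* over both stages had an adjusted p of 0.0366 with it at less than 1.5-fold. The deviations of control and mutant samples with the same number correlated at 0.0205, 0.384 and 0.251 at E11.5 and at 0.0350 to 0.0767 at E12.5. Over the other pairs of groups the range was -0.117 to 0.172. Whether such samples share a litter or a batch is not given and cannot be decided from these values. The causes were not tested.

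Signs changed only for values that passed no threshold. A sex term gave -0.024 for *Cd44* between stages in controls and 0.037 for *Adamts5* over both stages. In the difference of the mutant effect between stages it gave 0.036 for *Vcan* and -0.038 for *Hyal2*. With single libraries left out, *Adamts1* ran from -0.27 to 0.019 and *Hyal2* from -0.078 to 0.19 at E11.5, and *Ugdh* from -0.065 to 0.00010 at E12.5. Between stages in controls *Adamts9* ran from -0.17 to 0.0027 and *Vcan* from -0.33 to 0.081, and in mutants *Hyal2* from -0.16 to 0.11 and *Adamts9* from -0.062 to 0.18. For the difference of the mutant effect between stages *Adamts1* ran from -0.068 to 0.22, *Cd44* from -0.064 to 0.16, *Hyal2* from -0.063 to 0.21, *Has2* from -0.051 to 0.34 and *Vcan* from -0.36 to 0.057. *Adamts5* over both stages ran from -0.17 to 0.038. All are on the log2 scale. *Acan*, at 6 to 26 reads, is limited by depth.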
